A study of Arabidopsis thaliana with 12 samples.

Results

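The response of er erl2 seedlings to auxin was measured by RNA sequencing in 6 libraries, 3 from seedlings given the auxin indole-3-acetic acid (IAA) and 3 from mock-treated seedlings, out of 12 libraries in the series. The er erl2 seedlings carried the mutant alleles er-105 and erl2-1, which affect the receptor kinase genes ERECTA (ER) and ERECTA-LIKE 2 (ERL2), in the accession Col-0. Whole seedlings, 3 days old after germination, were kept in liquid medium and then given 1 uM IAA in 0.02% dimethyl sulfoxide (DMSO) for 30 min, or 0.02% DMSO alone. The remaining 6 libraries came from wild-type Col-0 seedlings, 3 given IAA and 3 mock-treated in the same way, and serve here for the difference in response between genotypes. The libraries were selected by condition label alone. Of 37336 genes in the count table, the 21376 that passed a count filter were tested.

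ER was at 6.70 to 8.39 CPM (counts scaled to library size) in the er erl2 IAA libraries and at 4.92 to 8.57 CPM in the er erl2 mock libraries, against 53.1 to 58.9 CPM in wild-type IAA libraries and 56.8 to 63.6 CPM in wild-type mock libraries. ERL2 was at 2.42 to 2.98 CPM in er erl2 IAA and at 2.50 to 3.93 CPM in er erl2 mock, against 9.07 to 12.3 CPM in wild-type IAA and 11.8 to 13.2 CPM in wild-type mock. Both genes were thus lower in all 6 mutant libraries than in any wild-type library. The er erl2 libraries held 30043471 to 35837999 counts each.

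Auxin acts on transcription within minutes. It brings the TIR1/AFB receptors together with Aux/IAA repressors, the repressors are degraded, and the auxin response factors (ARFs) that they held are released. Early targets include the Aux/IAA genes themselves, GH3 genes for enzymes that conjugate IAA to amino acids, and SAUR genes for small proteins known to promote cell expansion. Later steps in roots run through LBD transcription factors that start lateral root formation.

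In er erl2 seedlings 30 min of IAA mostly raised transcripts. Of 21376 genes tested, 276 rose with IAA, a share of 1.29%, and 52 fell, a share of 0.243%, at an adjusted p under 0.05 in edgeR's quasi-likelihood test. Together they made up 328 genes or 1.53% of those tested, while 2419 genes or 11.3% had an unadjusted p under 0.05. The 276 genes that rose included 158 that changed at least 2-fold, 56 at least 4-fold and 22 at least 8-fold, with a median log2 fold change of 1.17. Decreases were smaller: 13 of the 52 genes fell at least 2-fold, 3 at least 4-fold and 0 at least 8-fold, and the median log2 fold change was -0.67. The median over all genes tested was -0.0045.

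The IAA libraries all lay above the mock libraries in 275 of the 276 genes that rose, and all below them in 52 of the 52 that fell. Over all genes tested, the 3 IAA libraries lay above the 3 mock libraries in 8.53% and below them in 8.65%. The genes were called from these same libraries, so their separation is no separate support for the calls. The first principal component of the 6 er erl2 libraries held 41.3% of the variance and separated the treatments, and the second held 19.2%. IAA replicate 2 lay closest to the mock libraries on the first component and stood apart from them on the second. It was the lowest of the 3 IAA libraries in 148 of the 276 genes that rose, replicate 1 in 89 and replicate 3 in 39, whereas over all genes tested replicate 1 was lowest in 6172, replicate 2 in 7328 and replicate 3 in 7876. Without IAA replicate 2, the same test gave 442 higher and 119 lower genes, and 311 of the 328 calls were kept.

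**Figure D1:**
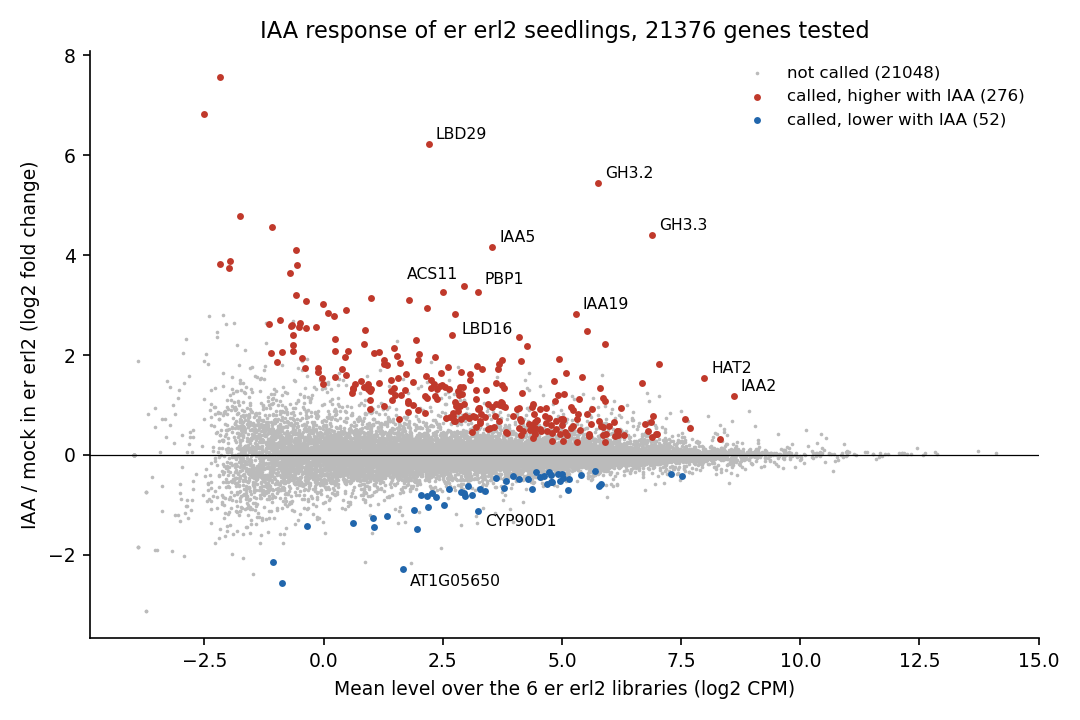
Log2 fold change of IAA over mock in er erl2 seedlings (vertical axis) against the mean level over the 6 er erl2 libraries in log2 CPM (horizontal axis), 1 point per gene, for 21376 genes. Red points are the 276 genes that rose and blue points the 52 that fell; the 2 highest points, AT4G11340 and ACS9, had 0 counts in all 3 mock libraries, so their fitted fold changes have no scale of their own.

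The largest increase among genes with a mean level of at least 1 log2 CPM was in LBD29, an LBD transcription factor gene of lateral root formation. It was at 32.5, 34.98 and 49.5 CPM in the IAA libraries of replicates 1 to 3, against 0.804, 0.400 and 0.359 CPM in the mock libraries. The groups lay far apart, with the lowest IAA library more than an order of magnitude above the highest mock library. The increase was 74.6-fold, or 6.22 (SE 0.37) on the log2 scale, with an adjusted p of 1.60e-05.

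GH3.2 (also named BRU6) and GH3.3 followed, both genes of enzymes that conjugate IAA to amino acids. GH3.2 was at 319, 349 and 390 CPM with IAA and at 8.87, 7.64 and 7.91 CPM with mock, an increase of 43.3-fold. GH3.3 was at 507, 562 and 591 CPM with IAA and at 34.6, 21.9 and 21.7 CPM with mock, an increase of 21.2-fold. In GH3.3 mock replicate 1 was the highest of the mock libraries and still lay far below every IAA library.

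IAA5, an Aux/IAA repressor gene, gave the smallest adjusted p of the genes named here, 3.18e-11. It was at 49.2, 46.4 and 50.1 CPM with IAA and at 2.94, 3.00 and 2.24 CPM with mock, which is 17.9-fold. Relative to their mean, its 3 IAA libraries lay closer together than those of LBD29, GH3.2 or GH3.3. IAA5 overlaps AT1G15570 in the annotation, so its counts are uncertain. The same holds for these other genes named here that overlap a neighbour: IAA3, IAA9, IAA10, IAA11, IAA13, ARF19, PBP1, CKX1, CKX6, LOG4, CCD8, RTFL10, NPY2, ROT3, ABCG14, AT3G16180, OPT6 and TMT1.

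The other large increases belonged to ACS11, an ethylene synthesis gene (10.4-fold), PBP1, a calcium-binding partner of the PINOID kinase (9.65-fold), GH3.1 (9.63-fold) and AT1G53163, annotated as a membrane-associated kinase regulator (8.57-fold). MAKR4, of the same protein family and known in lateral root spacing, rose 7.72-fold, the lateral root factor LBD16 7.12-fold, IAA19 7.07-fold and GH3.5 5.61-fold. IAA replicate 2 was the lowest IAA library in 6 of the 12 largest increases. ACS11 was at 24.4, 17.7 and 32.5 CPM with IAA and at 2.23, 2.50 and 2.46 CPM with mock.

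**Figure D2:**
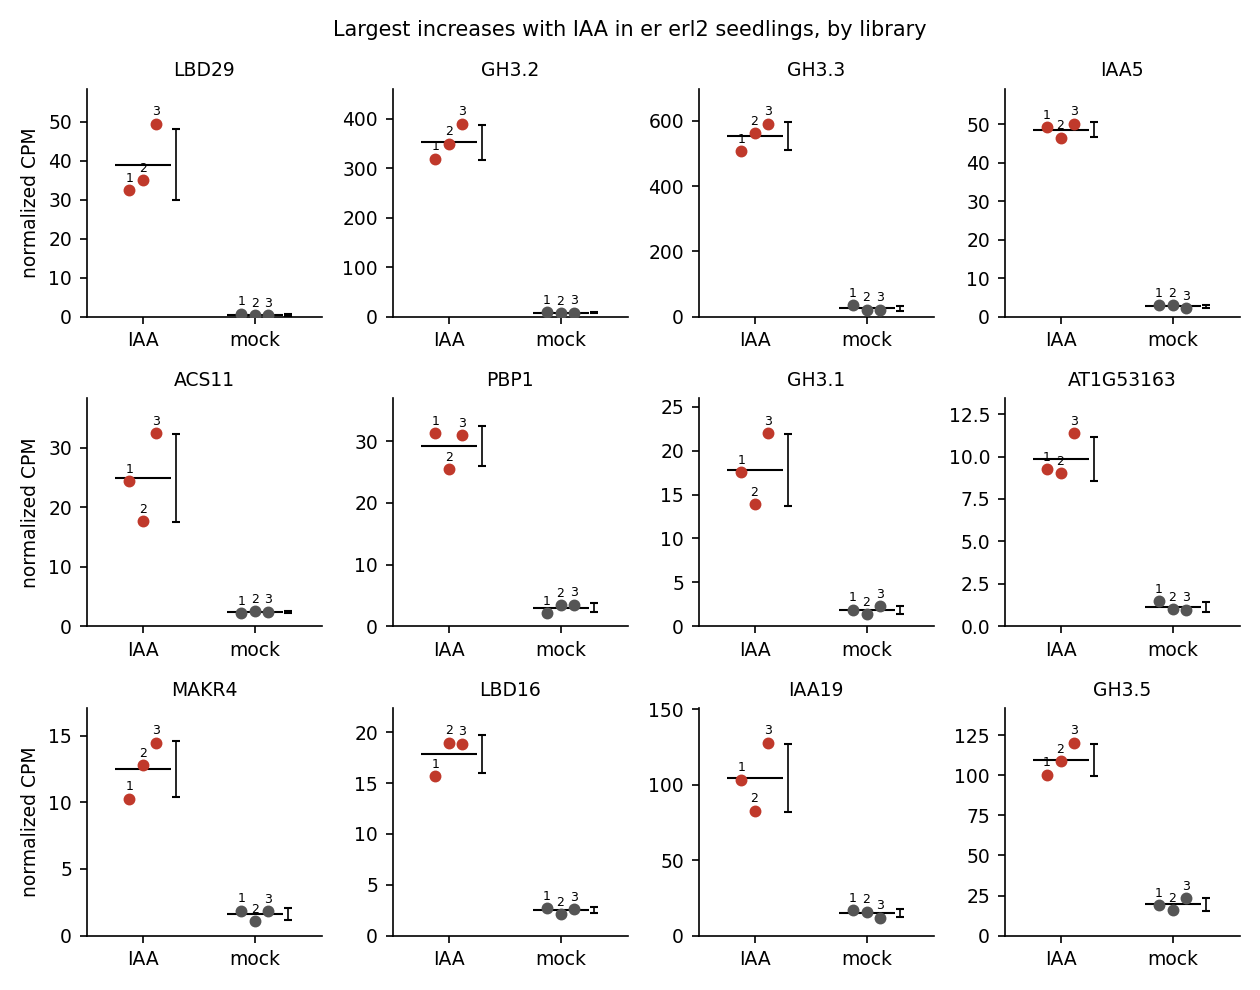
Normalized CPM of the 12 genes with the largest increases in er erl2, 1 panel per gene on a linear axis from 0, with the 3 IAA libraries (red, left) and the 3 mock libraries (grey, right) numbered by replicate. Horizontal lines are means and bars are the SD (n = 3). Only genes without overlap between the groups were chosen, so in every panel all 3 IAA libraries lie above all 3 mock libraries. Increases run from 5.61-fold in GH3.5 to 74.6-fold in LBD29.

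Promoters of 5 of the 12 largest increases are shown because ARFs bind TGTC-containing elements there. The following are the 250 bases before the annotated start of LBD29, GH3.2, GH3.3, IAA5 and IAA19 in the RefSeq assembly TAIR10.1, read 5′ to 3′ toward the gene. Capitals mark TGTCTC or TGTCGG on either strand.
LBD29 promoter, chr3:21549573-21549822, minus strand: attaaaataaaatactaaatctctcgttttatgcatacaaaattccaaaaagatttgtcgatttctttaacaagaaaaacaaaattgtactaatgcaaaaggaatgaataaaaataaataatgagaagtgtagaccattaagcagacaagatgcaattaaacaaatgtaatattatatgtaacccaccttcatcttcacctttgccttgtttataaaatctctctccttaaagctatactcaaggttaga
GH3.2 promoter, chr4:17579368-17579617, plus strand: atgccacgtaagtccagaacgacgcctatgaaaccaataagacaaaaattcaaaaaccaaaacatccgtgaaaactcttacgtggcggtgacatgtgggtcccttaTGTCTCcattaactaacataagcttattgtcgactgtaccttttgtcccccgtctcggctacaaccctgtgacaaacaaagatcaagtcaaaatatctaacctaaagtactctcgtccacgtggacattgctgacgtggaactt
GH3.3 promoter, chr2:9866563-9866812, minus strand: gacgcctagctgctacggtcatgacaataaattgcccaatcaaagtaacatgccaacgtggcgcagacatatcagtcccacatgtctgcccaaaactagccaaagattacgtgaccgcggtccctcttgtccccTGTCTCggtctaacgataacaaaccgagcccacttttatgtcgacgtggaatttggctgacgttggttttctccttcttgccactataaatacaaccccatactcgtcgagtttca
IAA5 promoter, chr1:5366498-5366747, minus strand: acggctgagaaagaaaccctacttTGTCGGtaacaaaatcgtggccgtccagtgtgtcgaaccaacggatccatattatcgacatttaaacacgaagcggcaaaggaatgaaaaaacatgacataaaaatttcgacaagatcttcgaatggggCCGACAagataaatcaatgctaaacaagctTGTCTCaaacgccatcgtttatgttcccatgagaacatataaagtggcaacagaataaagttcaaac
IAA19 promoter, chr3:5263751-5264000, plus strand: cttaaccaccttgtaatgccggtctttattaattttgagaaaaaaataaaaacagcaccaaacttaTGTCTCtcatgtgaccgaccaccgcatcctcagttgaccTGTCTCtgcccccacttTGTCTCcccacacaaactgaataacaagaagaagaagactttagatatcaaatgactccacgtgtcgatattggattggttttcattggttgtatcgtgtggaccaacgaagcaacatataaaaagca
LBD29 held 0 matches to either element and 2 matches to the shorter core TGTCNN in this stretch. GH3.2 and GH3.3 held 1 TGTCTC each, IAA5 held 1 TGTCTC and 2 TGTCGG, and IAA19 held 3 TGTCTC. The promoter with the largest fold change thus held the fewest of these elements among the 5. It was not alone among the 12 largest increases. PBP1, GH3.1, AT1G53163, MAKR4 and LBD16 also held 0 matches to either element in their 250 bases. ACS11 held 1 TGTCTC and 1 TGTCGG, and GH3.5 held 1 TGTCTC.

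Across all genes, the motifs were counted on both strands from 250 bases before to 50 after the start, a window of 300 bases. TGTCTC was present in 23.6% of the 276 promoters of genes that rose (95% Wilson interval 18.9 to 28.9%), in 15.4% of the 52 promoters of genes that fell (8.01 to 27.5%) and in 13.8% of the 21295 promoters of tested genes with an annotated position. TGTCGG was present in 9.42% of promoters of genes that rose, 1.92% of those that fell and 5.55% of all. At least 2 copies of TGTCNN, which counts the longer elements too, were found in 65.2%, 46.2% and 52.4% in the same order. A match describes the letters in the window and not a bound site.

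Of 28 Aux/IAA repressor genes tested, 15 or 53.6% rose and 0 fell, with a median log2 fold change of 0.70 against -0.0045 over all genes. Over all genes tested 1.29% rose and 0.243% fell, the shares to set beside each list and family count below. Increases ran from 0.32 in IAA9 to 4.16 in IAA5 on the log2 scale. IAA6 was at 2.25, 1.71 and 2.99 CPM with IAA and at 0.0309, 0.200 and 0.249 CPM with mock. IAA1 was at 134, 113 and 140 CPM with IAA and at 33.5, 25.7 and 24.2 CPM with mock. Neither gene had overlapping groups, and the increases were 14.0-fold and 4.64-fold.

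Not every repressor followed. The 13 members that did not pass had log2 fold changes from -0.29 to 1.31, and they included IAA7, IAA14, IAA17, IAA27 and IAA28. Among the less usual members, IAA20 and IAA30, whose proteins lack the degradation motif of the family, rose by 2.20 (SE 0.33) and 2.01 (SE 0.15) on the log2 scale. IAA13 rose by 1.33 (SE 0.09), and IAA12 by 0.61 (SE 0.09).

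Receptors and ARFs act on either side of these repressors. Of the 6 TIR1/AFB receptor genes tested, 0 passed, where 1.53% of all genes did, with log2 fold changes from -0.20 to 0.06. Of 15 ARF genes, 2 or 13.3% rose, against 1.29% of all genes, and 0 fell. ARF19, an activator in roots, was at 41.0, 41.6 and 38.9 CPM with IAA and at 26.2, 21.5 and 26.4 CPM with mock. ARF10, of the repressor class, rose by 0.74 (SE 0.12) on the log2 scale, much like ARF19 with 0.71 (SE 0.09).

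Of 9 tested members of the inactivation list (GH3 conjugating enzymes and IAA oxygenases), 5 rose and 0 fell, and the 5 were GH3.1, GH3.2, GH3.3, GH3.5 and GH3.6. GH3.6 was at 80.6, 91.3 and 85.4 CPM with IAA and at 39.2, 35.4 and 42.5 CPM with mock, a 2.20-fold increase. The 4 members that did not pass had log2 fold changes from -0.28 to 0.01.

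Genes that make auxin gave no call in the higher direction. Of 10 tested synthesis genes, 0 rose and 1 fell, with a median log2 fold change of -0.45. The gene that fell was YUC6, of the YUCCA flavin monooxygenases that catalyse the last step of IAA synthesis. It was at 5.11, 6.23 and 6.20 CPM with IAA and at 10.9, 8.44 and 10.5 CPM with mock, with no overlap. Of the others, YUC9, YUC3 and YUC8 also had all IAA libraries below all mock libraries, with log2 fold changes of -0.84, -0.68 and -0.65 and adjusted p-values of 0.0845, 0.328 and 0.0665. TAA1 and TAR2, genes of the step before, had values of 0.12 and 0.04.

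Of 18 tested genes of auxin transport and its control, 5 rose and 0 fell. PID, a kinase gene of auxin transport control, was at 8.77, 8.31 and 11.9 CPM with IAA and at 4.42, 4.64 and 4.89 CPM with mock, with no overlap. It rose 2.07-fold, and its relative WAG2 1.67-fold, which missed the threshold in 9 of 19 alternative fits. LAX2, an influx carrier, rose 1.63-fold. PBP1, the PINOID-binding protein named above, was at 31.3, 25.5 and 31.0 CPM with IAA and at 2.16, 3.402 and 3.51 CPM with mock.

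The SAUR family gave the largest number of called genes of any family examined, and it also had the most members tested. Of 79 annotated members 64 were tested. Of these, 25 or 39.1% rose, against 1.29% of all genes, and 1 fell, with a median log2 fold change of 0.40. The share that rose was below the 53.6% of the Aux/IAA repressors and above the 22.7% of the LBD family. Increases among the 25 ran from 0.41 to 3.09 on the log2 scale. SAUR19, whose product promotes cell expansion, was at 11.2, 12.2 and 10.8 CPM with IAA and at 4.61, 5.24 and 4.81 CPM with mock, a 2.34-fold increase. The largest increase was in AT4G22620, which averaged 2.01 CPM with IAA and 0.23 CPM with mock. The member that fell, AT5G10990, was at 0.288, 0.201 and 0.0995 CPM with IAA and at 0.649, 1.00 and 1.02 CPM with mock, and its call was lost in 6 alternative fits. SAUR genes lie in tandem arrays of near-identical copies, so the division of reads among neighbours is uncertain.

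Fold changes of the called SAUR genes were mostly smaller in er erl2 than in wild type. No single gene passed edgeR's quasi-likelihood test of the difference, while the DESeq2 Wald test called 8 SAUR genes and edgeR without wild-type mock replicate 1 called 4 (SAUR19, with an interaction of -1.47, SAUR23 with -1.34, AT1G29460 with -1.23 and AT4G34760 with -0.88). Of the 25 SAUR genes that rose in er erl2, 24 had a smaller log2 fold change in er erl2 than in wild type, with medians of 1.33 in er erl2 and 2.11 in wild type. Over all 64 tested members the medians were close, 0.40 in er erl2 and 0.38 in wild type, and 49 had an estimate below 0 for the difference. An estimate below 0 for the difference between genotypes was found in 50.6% of all genes tested. Of the 251 other genes that rose, 49 had a smaller fold change in er erl2, with medians of 1.13 in er erl2 and 0.77 in wild type. The 25 and the 251 genes were both picked by their call in er erl2, which favours a larger fold change there. The medians of the 251 genes therefore do not show a stronger response in the mutant. The unadjusted interaction p was under 0.05 for 20 of the 25 SAUR genes and for 77 or 30.7% of the 251 other genes that rose. The share was 5.98% over all genes tested. The 1 SAUR gene of the 25 with the larger fold change in er erl2 was AT4G22620, with log2 fold changes of 3.09 in er erl2 and 2.04 in wild type.

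Levels in both treatments were compared between genotypes. Under mock, 20 of the 25 SAUR genes had a higher mean in er erl2 than in wild type, and in 16 of them the groups did not overlap. With IAA, 6 of the 25 had a higher mean in er erl2, and in 11 all er erl2 libraries lay below all wild-type libraries and in 2 above them. Over all genes tested, er erl2 was higher under mock in 10206 of 21376 and did not overlap, on the higher side, in 3608. With IAA, er erl2 had the higher mean in 10593 of all genes tested, and lay below wild type without overlap in 3611. SAUR19 was at 4.61 to 5.24 CPM in er erl2 mock libraries, against 1.15 to 1.72 CPM in wild-type mock libraries.

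**Figure D3:**
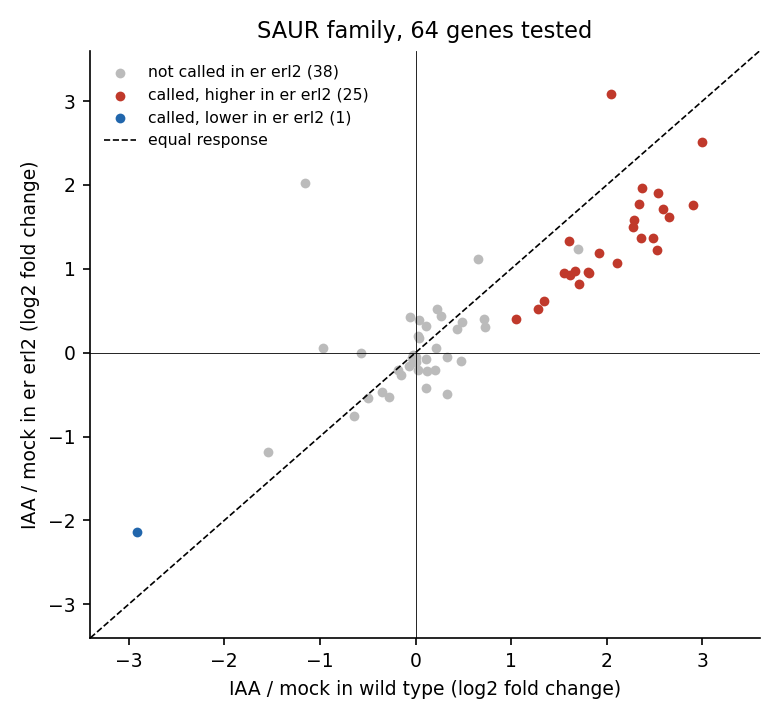
Log2 fold change of IAA over mock in er erl2 (vertical axis) against that in wild type (horizontal axis) for the 64 tested SAUR genes, with the dashed line marking equal response. Red points are the 25 genes that rose in er erl2, of which 24 lie below the line, and the blue point is the 1 that fell.

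Of 15 listed lateral root regulators tested, 7 rose and 0 fell, with a median log2 fold change of 1.02. Beside LBD29, LBD16 and MAKR4 these were LBD17, LBD14, GATA23 and CRF3. GATA23, a transcription factor of lateral root founder cells, was at 2.28, 2.24 and 2.95 CPM with IAA and at 0.495, 0.367 and 0.608 CPM with mock. LBD17 rose 8.14-fold and LBD14 6.15-fold. LBD18, PUCHI, PLT3, PLT5, PLT7, LBD33, MYB77 and CRF2 did not pass, and their log2 fold changes lay between -0.23 and 1.24. In the LBD family as a whole, 5 of 22 tested members rose and 1 fell: LBD4 rose 2.69-fold, and LBD25 was at 3.89, 3.48 and 4.74 CPM with IAA and at 7.42, 7.34 and 9.65 CPM with mock.

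Of 9 listed class II homeodomain-leucine zipper genes, known from shade avoidance and leaf polarity, 6 rose and 0 fell. HAT2 was at 416, 453 and 419 CPM with IAA and at 161, 144 and 141 CPM with mock, a 2.89-fold increase. ATHB17 rose 3.13-fold, ATHB2 2.16-fold, and HAT3 1.99-fold, while HAT1 and HAT22 rose by 0.58 (SE 0.08) and 0.57 (SE 0.07) on the log2 scale. HB18, a homeodomain-leucine zipper gene that the list does not hold, rose by 1.09 (SE 0.21) on the log2 scale with an adjusted p of 0.0135 in edgeR, and was named after its values were seen. Of 12 tested bHLH genes of growth control, 3 rose and 0 fell. PRE5, of small bHLH proteins that promote elongation, was at 0.635, 0.972 and 0.962 CPM with IAA and at 0.186, 0.200 and 0.304 CPM with mock. TMO5, a factor of vascular development, rose 1.93-fold and BEE1 1.47-fold, and the call of BEE1 was lost in 4 alternative fits. The PIF genes on that list, which encode light-regulated factors, did not pass.

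Genes of other hormones were among the increases. Ethylene synthesis begins with ACC synthases, and 4 of 12 listed genes rose while 0 fell. ACS6 was at 44.7, 33.5 and 39.4 CPM with IAA and at 7.67, 8.87 and 6.30 CPM with mock, a 5.17-fold increase. ACS4 rose 3.18-fold with an adjusted p of 0.0487, and missed the threshold in 12 of 19 alternative fits. ACS9 had 16, 18 and 8 counts in the IAA libraries and 0 in each mock library, which is at least 4.82-fold higher against a floor of 3 counts per library. The listed ACC oxidases, which carry out the last step, did not pass.

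The cytokinin genes of the list that rose encode cytokinin oxidases, which degrade cytokinin: CKX3 was at 2.91, 1.37 and 2.02 CPM with IAA and at 0.186, 0.334 and 0.525 CPM with mock, CKX6 rose 3.84-fold and CKX1 3.48-fold. They were 3 of 16 tested genes on the cytokinin list, of which 0 fell, and CKX6 missed the threshold in 4 alternative fits. The response regulators on that list did not pass. LOG4, for an activating enzyme, rose 2.66-fold. Of 3 genes of trans-zeatin supply 2 fell. CYP735A2, which makes trans-zeatin forms, was at 6.46, 5.73 and 7.63 CPM with IAA and at 11.7, 8.97 and 13.7 CPM with mock. ABCG14, which exports cytokinin from the root, was at 47.7, 44.7 and 40.0 CPM with IAA and at 70.8, 64.6 and 69.2 CPM with mock. Its call was lost in 4 of 19 alternative fits and that of CYP735A2 in 2. The third gene of this group, CYP735A1, had a log2 fold change of -1.25 with an adjusted p of 0.0648. LOG4 and this group of 3 were picked after their values were seen.

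Of 11 brassinosteroid genes, 2 rose and 2 fell. BAS1, which inactivates brassinosteroids, was at 20.3, 20.9 and 18.9 CPM with IAA and at 7.64, 7.54 and 7.13 CPM with mock, an increase of 1.43 (SE 0.08) on the log2 scale. DWF4, of an early hydroxylation step, rose 1.45-fold. The hydroxylase genes that fell were CYP90D1, at 6.43, 6.97 and 5.61 CPM with IAA and 14.9, 12.1 and 14.7 CPM with mock, and ROT3, by 0.48 (SE 0.08) on the log2 scale. BEN1 and BAT1, also known for lowering active brassinosteroid, rose by 0.70 (SE 0.12) and 0.81 (SE 0.14), and the receptor-like gene BRL2 fell by 0.40 (SE 0.08), a call missed in 5 of 19 alternative fits; these 3 were named after their values were seen.

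Of 9 gibberellin genes, 2 rose and 0 fell, both 20-oxidases of gibberellin synthesis. GA20OX1 was at 6.32, 5.997 and 4.81 CPM with IAA and at 2.29, 1.23 and 1.27 CPM with mock, and GA20OX2 rose 2.15-fold. Strigolactone synthesis, a list put together after values were seen, had 3 of 5 genes higher. CCD8 was at 5.02, 5.49 and 6.57 CPM with IAA and at 1.36, 1.301 and 1.22 CPM with mock. The gene for the enzyme that acts before it, CCD7, had 26, 33 and 30 counts with IAA and 1, 0 and 2 counts with mock. LBO1 rose 1.67-fold. NCED5, of abscisic acid synthesis, had 22, 13 and 21 counts with IAA and 3, 1 and 0 with mock, and was named after its values were seen.

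**Figure D4:**
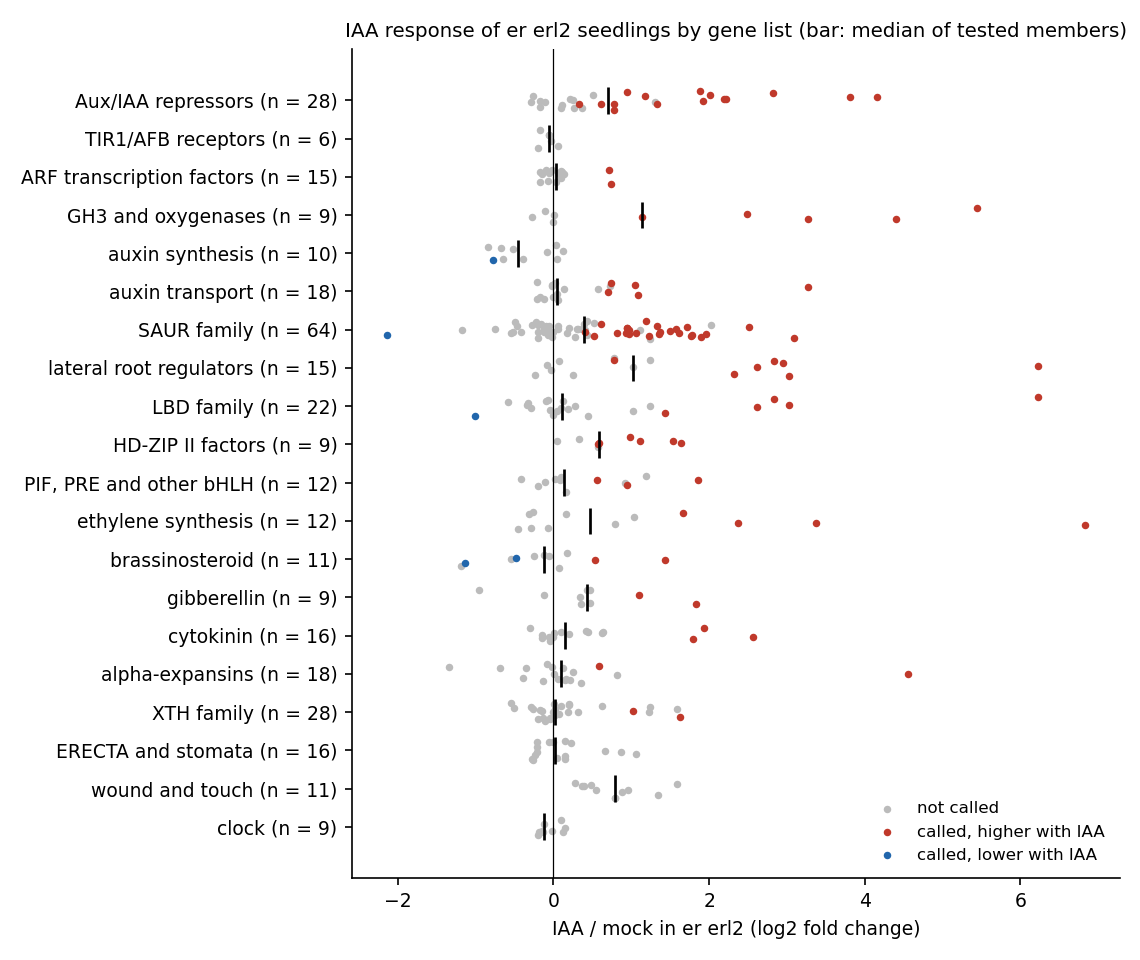
Log2 fold change of IAA over mock in er erl2 (horizontal axis) for the tested members of 20 gene lists (rows, with the number tested), 1 point per gene. Red points rose, blue points fell, grey points did not pass, and black bars are medians over the tested members, such as 0.70 for the Aux/IAA repressors and -0.45 for auxin synthesis.

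Of 18 tested alpha-expansins, which loosen the wall, 2 or 11.1% rose, against 1.29% of all genes: EXPA15 1.51-fold, and EXPA12 with 93, 30 and 47 counts with IAA and 1, 3 and 3 counts with mock. Of 28 tested xyloglucan endotransglucosylase/hydrolases, 2 or 7.14% rose. XTH19 was at 65.9, 44.1 and 71.3 CPM with IAA and at 18.0, 17.8 and 22.6 CPM with mock. XTH17 rose 2.03-fold, but missed the threshold in 11 of 19 alternative fits, EXPA15 in 7 and EXPA12 in 8.

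Small protein families outside the lists were counted after their values were seen. Of 13 tested genes for ROTUNDIFOLIA-like peptides, which restrict cell proliferation when overexpressed, 4 rose and 1 fell. RTFL13 was at 1.76, 2.78 and 2.99 CPM with IAA and at 0.0618, 0.0667 and 0.277 CPM with mock, and RTFL8, the member that fell, was at 5.25, 7.10 and 5.21 CPM with IAA and at 11.1, 9.37 and 10.7 CPM with mock, but missed the threshold in 8 of 19 alternative fits. Of 11 membrane-associated kinase regulators 4 rose, and of 29 NPH3-domain genes 4 rose, including NPY2 (2.47-fold) and NPY5 (1.54-fold), whose proteins act with PINOID in organ formation. Of 12 genes with the unnamed domain DUF241, 4 rose, of which AT4G35200 was at 3.06, 2.18 and 3.22 CPM with IAA and at 0.402, 0.467 and 0.359 CPM with mock.

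Products were sorted by the words in the annotation. Among the 52 genes that fell, 7 or 13.5% were transporters and channels, against 3.26% of the genes that rose and 3.37% of all genes tested. Cytochrome P450 genes numbered 4 or 7.69%, against 5 or 1.81% of the genes that rose and 0.837% of all. These shares of the 52 rest on few genes. Transcriptional regulators had like shares in both directions, 17.3% of the genes that fell and 16.7% of those that rose, against 5.67% of all.

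The largest decrease among genes with a mean level of at least 1 log2 CPM was in AT1G05650, annotated as a pectin lyase-like protein. It was at 1.27, 1.74 and 1.23 CPM with IAA and at 6.18, 7.14 and 7.27 CPM with mock. All IAA libraries lay far below the mock libraries, and the log2 fold change was -2.28 (SE 0.38) with an adjusted p of 0.0084. The call was lost without IAA replicate 1 and without IAA replicate 3, with log2 fold changes of -2.21 and -2.20. The gene AT5G24100, whose product is a leucine-rich repeat kinase, was at 2.39, 1.88 and 2.65 CPM with IAA and at 6.09, 6.30 and 6.89 CPM with mock.

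Transcription factor genes followed. MYB61, known in stomatal closure and wall formation, was at 1.298, 1.31 and 1.29 CPM with IAA and at 2.44, 2.702 and 4.15 CPM with mock. ZFP5, a zinc finger gene of trichome and root hair formation, was at 3.06, 3.38 and 2.95 CPM with IAA and at 5.91, 7.84 and 5.67 CPM with mock. MYB48, MYB59 and MYB28, of which MYB28 controls aliphatic glucosinolate synthesis, fell by 0.74 (SE 0.12), 0.58 (SE 0.11) and 0.38 (SE 0.09) on the log2 scale, and MYB28 missed the threshold in 9 of 19 alternative fits. MYB59, MYB61 and ZFP5 missed it in 4 each. The F-box genes AUF1 and AUF2 (AUXIN UP-REGULATED F-BOX) moved in opposite directions. AUF1 was at 224, 245 and 270 CPM with IAA and at 67.3, 68.8 and 72.4 CPM with mock, and AUF2 at 1.56, 1.54 and 1.72 CPM with IAA and 3.12, 4.10 and 4.06 CPM with mock. AUF1 and the genes MYB48, MYB59 and MYB28 were named after their values were seen.

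**Figure D5:**
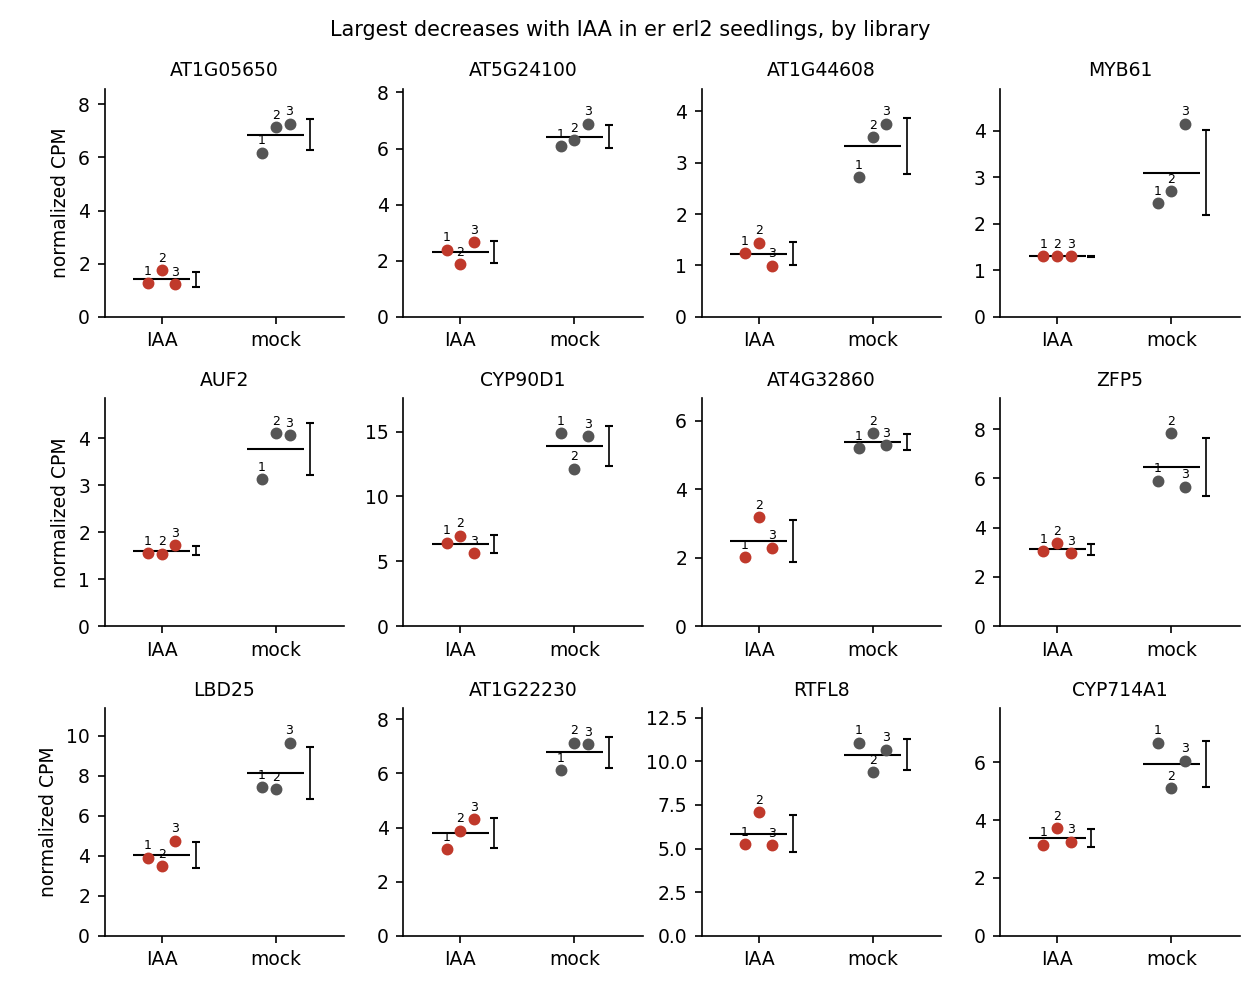
Normalized CPM of the 12 genes with the largest decreases in er erl2, drawn as for the increases, with IAA (red, left) and mock (grey, right) libraries numbered by replicate, means as lines and the SD (n = 3) as bars. Only genes without overlap between the groups were chosen, so in every panel all 3 IAA libraries lie below all 3 mock libraries. Log2 fold changes run from -2.28 in AT1G05650 to -0.82 in CYP714A1.

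Among the transporters, NRT1.1, the dual-affinity nitrate transporter, was at 166, 160 and 153 CPM with IAA and at 225, 202 and 211 CPM with mock. The groups did not overlap, and the decrease was 0.41 (SE 0.07) on the log2 scale. AT3G16180, of the same superfamily, fell by 0.55 (SE 0.09), the phosphate transporter gene PHT1;4 by 0.67 (SE 0.14), UMAMIT30 by 0.48 (SE 0.07), OPT6 by 0.41 (SE 0.09), TMT1, a sugar carrier of the vacuole, by 0.39 (SE 0.09) and ABCG29 by 0.33 (SE 0.06). The trehalose phosphatase genes TPPB and TPPH fell by 0.48 (SE 0.11) and 0.68 (SE 0.14). These genes were named after their values were seen; the calls of NRT1.1, AT3G16180 and UMAMIT30 held in all 19 alternative fits, and those of the other 6 were each lost in 3 to 9.

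The test of the difference between the genotypes called 0 of 21376 genes, or 0%, at an adjusted p under 0.05 in edgeR's quasi-likelihood test. Of all genes tested, 1279 or 5.98% had an unadjusted interaction p under 0.05. The DESeq2 Wald test called 16 genes. Among the 276 genes that rose in er erl2, 273 had a positive fold change in wild type too, and 178 were called in wild type, where 1.21% of all genes were called. An unadjusted interaction p under 0.05 was found for 97 of them. Of the 52 that fell, 50 were negative in wild type as well, 13 were called there, and 18 had such a p. Both sets were picked by their call in er erl2, which favours a larger change there than in wild type.

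The 5 smallest interaction p-values among genes called in er erl2 all belonged to SAUR genes with the smaller response in the mutant. They were SAUR19, with log2 fold changes of 1.22 in er erl2 and 2.52 in wild type, SAUR26 with 1.37 and 2.36, AT1G29460 with 1.06 and 2.11, SAUR29 with 0.95 and 1.82, and AT4G34760 with 0.52 and 1.28, the er erl2 value first in each pair. Their adjusted interaction p-values were 0.198 for the first 2 genes and 0.342 for the other 3. In the DESeq2 Wald test all 5 were called.

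GH3.2 and GH3.3 had the larger estimate in er erl2 and lower mock levels there. GH3.2 was at 319 to 390 CPM in er erl2 IAA libraries and at 332 to 370 CPM in wild-type IAA libraries, while its mock levels were 7.64 to 8.87 CPM in er erl2 and 18.2 to 65.5 CPM in wild type. GH3.3 was at 21.7 to 34.6 CPM in er erl2 mock and at 49.99 to 214 CPM in wild-type mock, where replicate 3 stood far above the other libraries. The interaction of GH3.2 was 2.14 (SE 0.58) on the log2 scale with all libraries, and 1.37 without wild-type mock replicate 3, with adjusted p-values of 0.806 and 0.0115. PBP1 had log2 fold changes of 3.27 in er erl2 and 1.85 in wild type, with mock levels of 2.16 to 3.51 CPM in er erl2 and 7.19 to 11.96 CPM in wild type. ALD1, a gene of pipecolic acid synthesis in defence, named after its values were seen, had log2 fold changes of 3.15 in er erl2 and 0.98 in wild type. Its mock levels were 0.498 to 0.867 CPM in er erl2 and 2.60 to 8.31 CPM in wild type. With IAA it was at 4.30 to 7.37 CPM in er erl2 and at 8.59 to 10.6 CPM in wild type. Its adjusted interaction p was 0.806 in edgeR's quasi-likelihood test and 0.0139 in the DESeq2 Wald test.

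Of 16 tested genes for ERECTA family receptors, their peptide ligands and stomatal lineage factors, 0 rose and 0 fell, a count that does not set them apart from all genes tested, of which 1.53% were called. Their median log2 fold change was 0.02. ER, ERL2 and ERL1 had log2 fold changes of 0.15 (SE 0.16), -0.27 (SE 0.18) and 0.15 (SE 0.20). ERL1, the family member that is intact here, was at 4.85, 5.33 and 4.05 CPM with IAA and at 4.05, 4.47 and 4.26 CPM with mock. The largest values were in the ligand genes EPFL4 (1.06, SE 0.51) and EPFL6 (0.87, SE 0.32), neither past the threshold.

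Marker lists show what else the seedlings carried. Shoot, root and clock lists had 0 calls among 5, 5 and 9 tested genes. The summed level of the 5 shoot markers was 19440 to 21480 CPM in IAA libraries and 18810 to 19290 CPM in mock libraries, and that of the 5 root markers was 69.1 to 72.5 CPM with IAA and 67.7 to 86.1 CPM with mock. The 4 seed storage genes reached at most 15 counts in any er erl2 library. In whole seedlings, a change in the number of cells of a type and a change per cell cannot be told apart.

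Wound and touch genes stood high in IAA replicates 1 and 3. Of 11 such genes 0 passed the test, and all 11 had positive log2 fold changes, with a median of 0.79, and the median in wild type was -0.13. Their summed level in er erl2 was 1386, 708.2 and 1449 CPM in IAA replicates 1 to 3 and 690.0, 808.7 and 444.5 CPM in mock replicates 1 to 3. In wild type it was 931.8, 1062 and 721.9 CPM with IAA and 679.4, 983 and 1331 CPM with mock. Among the er erl2 libraries, IAA replicate 1 lay above all mock libraries in 11 of the 11, replicate 2 in 2 and replicate 3 in 8. IAA replicate 2 was the lowest IAA library in 9 of the 11, and it is the replicate nearest to the mock libraries on the first principal component of all genes, though not on the second. TCH4, a wall enzyme gene that responds to touch, was at 148, 42.7 and 127 CPM with IAA and at 29.9, 35.1 and 40.5 CPM with mock. XTH19 was likewise lowest in replicate 2 among the IAA libraries. Whether handling had a part in these values was not tested.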

How the data were processed

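Gene-level read counts from poly-A selected, directional libraries of whole seedlings were used. The authors deposited raw counts in 1 table of genes by 12 libraries, with 4 groups of 3. Per the submitters' processing notes, bcl2fastq, STAR 2.7.6a and featureCounts 2.0.0 were used with the genome build TAIR10; whether counting used strand is not given in the sources used here, so counts of overlapping genes are uncertain. Of the 276 genes that rose 49 overlap another annotated gene, and of the 52 that fell 8 do. Of 37336 gene IDs, 37051 matched the RefSeq annotation of TAIR10.1, which gave names, products and promoter positions. Sequences are credited to RefSeq.

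The fit used edgeR 4.0.16 (R 4.3.3). filterByExpr (minimum count 10, minimum total 15) kept 21376 genes, libraries were scaled by trimmed mean of M-values, and a robust quasi-likelihood model with 1 mean for each group took in all 12 libraries. Contrasts were the IAA effect in er erl2 and the difference of that effect from wild type. Benjamini-Hochberg adjustment covered every gene tested, and a gene is called at an adjusted p under 0.05. Replicates are separate libraries; nothing in the labels says they came from separate cultures, so p-values measure the spread between libraries, which may be technical. CPM are the counts scaled to TMM-adjusted library size. Intervals and the floor of 3 counts cover counting error only. The fit was tested on simulated counts. Replicate pairs differed by more than counting noise.

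Named genes are the 12 largest increases and 12 largest decreases with a mean of at least 1 log2 CPM and no overlap, members of the lists and families, ER, ERL2 and ERL1, and the 5 smallest interaction p-values; others are marked, and 1 list member is not reported here. The members, lists and families were chosen with earlier results of these data known. Alternatives were no count filter, a mean CPM of at least 1, a Wald test in DESeq2 1.42.0, scaling by its size factors, a block for replicate number, voom with limma 3.58.1, changes of at least 1 on the log2 scale only, the er erl2 libraries alone, leaving out each library, and a promoter window of 250 bases.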

Additional observations from a re-analysis of the deposited data

How the results depend on the processing

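With all settings as reported, 328 genes were called for IAA in er erl2 (276 higher, 52 lower), and in the other fits the count ran from 219 to 561 as each of the 12 libraries was left out, with 191 to 442 higher and 23 to 119 lower. The highest counts came without er erl2 IAA replicate 2, the lowest total and the fewest lower genes without er erl2 mock replicate 3, and the fewest higher genes without er erl2 IAA replicate 3. The lower count of 52 moved by over 1.5 times without er erl2 IAA replicate 1 (30), replicate 2 (119) or replicate 3 (32), er erl2 mock replicate 2 (33) or replicate 3 (23), and wild-type mock replicate 1 (97). The DESeq2 Wald test called 617 genes (458 higher, 159 lower), which include all 328. Requiring a change of at least 1 on the log2 scale left 171 (158 higher, 13 lower), and a fit of only the er erl2 libraries gave 99 lower genes among 419. The causes of the other differences were not tested. The interaction count of 0 became 16 with the DESeq2 Wald test, and ran from 0 to 7 as libraries were left out: 7 in the absence of wild-type mock replicate 1, and 1 each in the absence of replicate 2 (PBP1) or replicate 3 (GH3.2) of that group. Over the 13 hormone and growth lists, 54 members were higher and 3 lower among 170 tested; the DESeq2 Wald test gave 5 lower. With the 250-base window, 2 or more TGTCNN were in 55.4% of promoters of genes that rose, and over all tested genes TGTCTC was in 10.7%, TGTCGG in 4.56% and 2 or more TGTCNN in 42.5%. Of 143 called genes followed through 19 alternatives, 94 stayed called in every fit that tested them, 49 lost the call in 1 or more, and 0 changed sign. Of the 49, 31 lost the call in 4 or more fits, and not every such gene is marked where it is named or counted above. The labels do not say whether replicate numbers pair the er erl2 libraries, and 3 libraries a group are too few to tell. Same-numbered IAA and mock libraries had correlations of deviations of 0.0762, -0.144 and -0.0377, and those with different numbers from -0.125 to 0.153. Not every library correlated best with its own number. A fit with the replicate block gave 304 calls (244 higher, 60 lower), of which 255 were shared, and an interaction count of 0. With 3 libraries a group, small changes of genes with few counts may not be detectable at this depth.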

Other observations

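Some genes that rose with IAA in er erl2 lay beside each other. Of the 276 genes, 45 or 16.3% lay in 15 runs of 2 or more tested neighbours that all rose. Of the 52 genes that fell, 2 or 3.85% lay in 1 run, AUF2 and AT1G22230. The sets differ in size, and the share that set size alone would give was not worked out. The runs of genes that rose included SAUR arrays on chromosomes 1, 3, 4 and 5, among them SAUR26, SAUR27, SAUR28 and SAUR29 side by side. Other runs joined unrelated kinds of genes or small pairs, such as LBD16 with LBD17, RTFL10 with WAG2, and PBP1, FQR1 and GH3.6. The longest run held 9 genes in the SAUR array of chromosome 1. It included 4 of the snoRNA genes of the annotation, AT1G06267, AT1G06273, AT1G06277 and AT1G06283, which overlap AT1G29465, so their reads cannot be assigned to 1 of the overlapping genes.

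By annotated type, the genes that rose were 270 protein-coding genes, 4 snoRNA genes and 2 long noncoding RNA genes, and those that fell were 51 protein-coding genes and 1 transcribed pseudogene. Genes with a single exon made up 32.2% of the protein-coding genes that rose and 39.2% of those that fell, against 16.8% of all protein-coding genes tested. AT4G11340, annotated as a disease resistance protein of the TIR-NBS-LRR class, had 26, 14 and 30 counts in the IAA libraries and 0 in each mock library, which is at least 8.03-fold higher against a floor of 3 counts per library. It overlaps AT4G11330, so its counts are uncertain. KCO3, a potassium channel gene, had 17, 12 and 17 counts with IAA and 0, 2 and 1 counts with mock. Its call was lost in 4 alternative fits. AT4G11340 and KCO3 were named after their values were seen.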
